A study of Homo sapiens with 6 samples.

Results

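The 2 alpha subunits of the hypoxia-inducible factors with a long history in tumour biology, HIF1A and EPAS1, were examined together with 8 of their well-known targets, VEGFA, CA9, ADM, NDRG1, BNIP3, ANGPTL4, EGLN3 and DDIT4. These 10 genes were taken by symbol from the 58735 genes of the deposited count table, by a rule that uses no measured value, although earlier results of these data were known when they were chosen. Of the 10, 9 were among the 15242 genes with enough counts to be tested, and CA9 was not.

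Hypoxia-inducible factors are transcription factors made of an oxygen-regulated alpha subunit and a stable partner, ARNT. When oxygen is plentiful, prolyl hydroxylases mark the alpha subunit, the VHL ubiquitin ligase binds the mark and the protein is degraded, so that the control acts mainly on the protein and not on its mRNA. In low oxygen the alpha subunit accumulates and switches on genes for blood vessel growth, glycolysis, pH balance and mitochondrial clearance, many of which also answer to other signals. The values below are mRNA levels, and neither protein amount nor oxygen was measured.

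MDA-MB-231 is a human triple-negative breast cancer line, which lacks the hormone receptors and HER2 amplification. Parent cells (3 libraries) were compared with ADRr (ADR-resistant) cells (3 libraries), a line made resistant to adriamycin (ADR, doxorubicin) from that parent by stepwise exposure and limiting dilution, so that it may descend from a single clone. Both were labelled as grown in DMEM with fetal bovine serum in a humidified CO2 incubator, and no treatment with low oxygen is named for either. Whether ADR was present at harvest is not given in the sources used here, and the lasting resistance and the drug itself cannot be told apart. Nothing states that the libraries came from separate cultures, so p-values measure only the spread between these samples, which may be technical. The 3 time points that the submitters mention are not tied to any library, and time and group could not be separated.

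Total counts per library ranged from 15983985 to 18272314. Of the 5 markers listed for mesenchymal-like triple-negative cells, all 5 were tested, 2 were called higher and 2 lower in ADRr cells, and their summed FPKM was 639 to 654 in parent and 639 to 642 in ADRr cells. ESR1, PGR and FOXA1, which mark luminal cells, had at most 3 counts in every library. The other 4 of 7 luminal markers were tested, 1 higher and 2 lower in ADRr cells, and the summed FPKM of the list was 24.96 to 29.53 in parent and 23.6 to 24.7 in ADRr cells. None of 6 leukocyte markers had enough counts to be tested. All 4 tested fibroblast markers, of 5 listed, were lower in ADRr cells, with a summed FPKM of 18.8 to 19.04 in parent and 3.70 to 4.10 in ADRr cells, and the fifth, DCN, had at most 3 counts in every library. The part of these markers in the results below was not tested. In RNA from many cells at once, fewer cells with a transcript and less transcript per cell cannot be told apart.

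Among the hypoxia genes, EPAS1, VEGFA, DDIT4 and ANGPTL4 rose in ADRr cells and ADM fell, while HIF1A was not called. A gene is called here when edgeR's quasi-likelihood test gave an adjusted p of at most 0.05 and the fold change was at least 1.2. By that rule 4 of the 9 tested members were higher (44.4%) and 1 was lower (11.1%). Over all 15242 tested genes 29.2% were higher and 29.6% lower, so many genes of every kind differed between these lines. In 7 of the 9 members (77.8%) no parent library reached the range of the ADRr libraries, 5 of them higher and 2 lower in ADRr cells, against 69.2% of all tested genes. The median log2 fold change (ADRr against parent) of the 9 members was 0.25, and that of all tested genes was -0.0061.

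**Figure D1:**
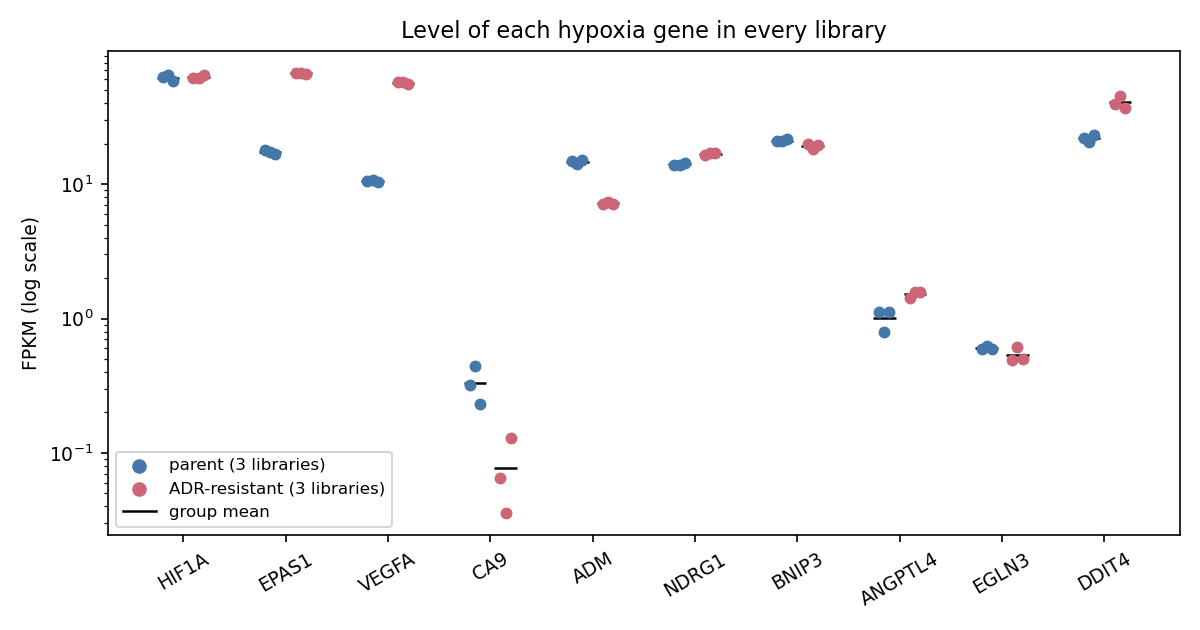
Level of each of the 10 genes in every library, in FPKM on a log axis, with parent libraries in blue, ADRr libraries in red and a short bar at each group mean. The libraries of EPAS1, VEGFA, DDIT4 and ADM form separate groups, whereas those of HIF1A and EGLN3 overlap.

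HIF1A encodes the most widely expressed alpha subunit (ENSG00000100644, GRCh38 chromosome 14, 61695513 to 61748259, plus strand). Its normalized counts, scaled to a common library size, were 5601, 5818 and 5270 in parent libraries 1 to 3 and 5548, 5497 and 5837 in ADRr libraries 1 to 3. The groups overlapped, with 1 parent library lowest of the 6 and 1 ADRr library highest. The log2 fold change was 0.02 (SE 0.051, edgeR adjusted p = 0.786), with a 95% interval from -0.09 to 0.12. In FPKM, a count scaled by gene length and depth, the level was 61.7 ± 3.14 (SD, n = 3) in parent and 62.7 ± 2.20 (SD, n = 3) in ADRr cells.

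EPAS1 encodes HIF-2 alpha, a related alpha subunit that shares ARNT as partner (ENSG00000116016, chromosome 2, 46293667 to 46386703, plus strand). Its normalized counts were 2282, 2224 and 2145 in parent libraries and 8553, 8596 and 8337 in ADRr libraries. Every ADRr library was far above every parent library, and the spread within each group was small. EPAS1 rose 3.83-fold (log2 fold change 1.94, SE 0.050, edgeR adjusted p = 4.86e-19), and 410 of the 15242 tested genes had a larger log2 fold change. Its FPKM was 17.4 ± 0.591 (SD, n = 3) in parent and 66.7 ± 0.925 (SD, n = 3) in ADRr cells.

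The balance of the alpha subunit transcripts therefore differed between the lines. EPAS1 made up 22.3, 21.2 and 22.3% of the summed FPKM of HIF1A and EPAS1 in the parent libraries and 52.1, 52.5 and 50.2% in the ADRr libraries. The share was higher in 3 of 3 ADRr libraries than in any parent library, 51.6% ± 1.22 against 21.96% ± 0.621 (SD, n = 3 each), a difference of 29.6 percentage points. The exact two-sided permutation test gave p = 0.1, the smallest p that 3 against 3 libraries allow. HIF3A, the gene of the remaining alpha subunit, had 0 counts in all libraries, which allows up to 3 counts in each.

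**Figure D2:**
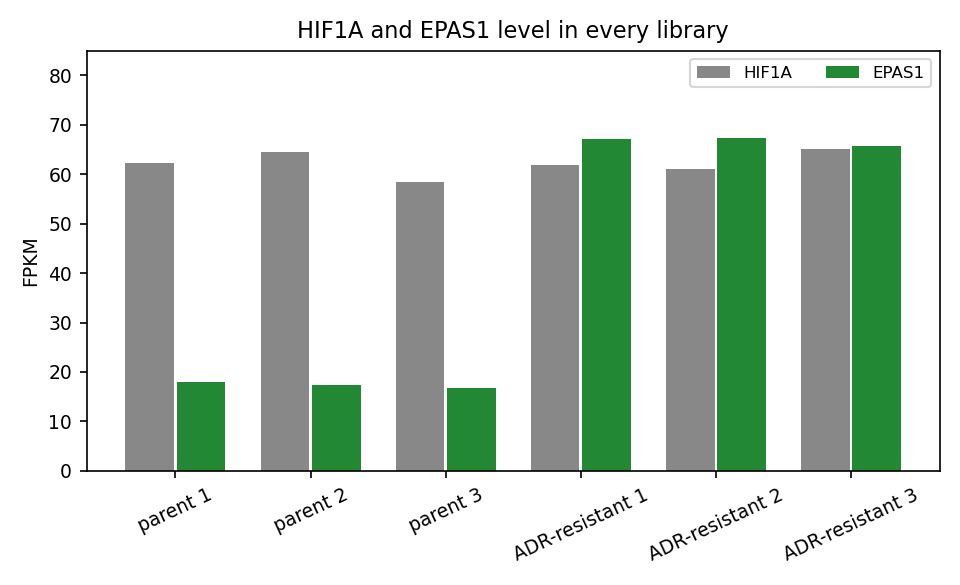
FPKM of HIF1A (grey bars) and EPAS1 (green bars) in each of the 6 libraries, 1 bar a gene and library. EPAS1 is the lower bar in the 3 parent libraries, with a mean of 17.4 FPKM, and the higher bar in the 3 ADRr libraries, with a mean of 66.7.

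Genes whose profiles over the 6 libraries lay closest to each factor were found by the distance between mean-centred log2 CPM (counts scaled by library size), among protein-coding genes. For EPAS1 these were MEX3C (distance 0.056), IL6 (0.082) and TSC22D1 (0.087), with log2 fold changes of 1.93, 1.97 and 1.98. For HIF1A they were CNOT1 (distance 0.043), COPA (0.044) and XPR1 (0.046), with log2 fold changes of 0.0074, -0.0025 and -0.014. With 2 groups the distance mostly picks genes of the same fold change.

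Among the other genes that sense oxygen or handle the alpha subunits, 18 of 19 listed were tested. Of these, 4 were called higher (22.2%) and 6 lower (33.3%), against 29.2% and 29.6% of all tested genes. Their median log2 fold change was -0.062. EGLN1, the main prolyl hydroxylase that marks the alpha subunits, fell by 0.51 on the log2 scale (SE 0.064), from normalized counts of 1437 to 1554 in parent libraries to 1031 to 1127 in ADRr libraries. VHL, the recognition subunit of the ubiquitin ligase, fell by 0.64 (SE 0.065), from 1366 to 1480 normalized counts to 871 to 958. HIF1AN, the asparagine hydroxylase that blocks coactivator binding, fell by 0.32, and P4HTM, a transmembrane prolyl hydroxylase, fell by 1.19. CITED2, which competes for those coactivators, fell by 0.32, and ARNT2, a relative of ARNT best known from the nervous system, fell by 1.30. All 6 had an edgeR adjusted p of 8.34e-05 or lower.

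The 4 called higher were COMMD1 (log2 fold change 0.93), a binding partner of HIF1A, the coactivators EP300 (0.51) and CREBBP (0.30), and SIAH1 (0.32), a ubiquitin ligase that acts on prolyl hydroxylases. ARNT itself was not called, with a log2 fold change of -0.18 (SE 0.083, edgeR adjusted p = 0.0571), nor was EGLN2, another prolyl hydroxylase, at -0.33 (SE 0.15, edgeR adjusted p = 0.0533). The remaining 6, ELOC, ELOB, CITED4, SIAH2, CUL2 and RBX1, had log2 fold changes from -0.11 to 0.22 and were not called.

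EGLN3, a prolyl hydroxylase that is itself a target of the factors, had few reads (ENSG00000129521, chromosome 14, 33924231 to 34462774, minus strand). Normalized counts of EGLN3 were 76.2, 81.1 and 76.0 in parent libraries and 62.8, 79.5 and 63.5 in ADRr libraries. One ADRr library lay among the parent libraries and the others below them. The log2 fold change was -0.18 (SE 0.19, edgeR adjusted p = 0.406), and its 95% interval from -0.57 to 0.21 leaves a decrease or a small increase undetectable at this depth. The gene span holds SPTSSA, with which it shares 0 exon bases.

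VEGFA encodes the main growth factor for blood vessels and had the largest fold change of the 9 tested members (ENSG00000112715, chromosome 6, 43770184 to 43786487, plus strand). The libraries had normalized VEGFA counts of 2632, 2708 and 2640 in parent libraries and 14342, 14398 and 14004 in ADRr libraries. The groups lay far apart, and the coefficient of variation of its FPKM within a group was at most 1.49%. VEGFA rose 5.36-fold (log2 fold change 2.42, SE 0.048, edgeR adjusted p = 7.82e-21), and 236 tested genes had a larger log2 fold change. Its FPKM was 10.5 ± 0.157 (SD, n = 3) in parent and 56.6 ± 0.709 (SD, n = 3) in ADRr cells.

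ADM encodes the peptide adrenomedullin, which widens vessels and protects endothelium (ENSG00000148926, chromosome 11, 10304680 to 10307397, plus strand). Normalized counts of ADM were 700, 676 and 716 in parent libraries and 338, 352 and 335 in ADRr libraries. All ADRr libraries were below all parent libraries, opposite to VEGFA. The log2 fold change was -1.03 (SE 0.081, edgeR adjusted p = 1.57e-10), which is a fold of 0.490.

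ANGPTL4 encodes a secreted inhibitor of lipoprotein lipase that also responds to PPAR factors (ENSG00000167772, chromosome 19, 8363289 to 8374373, plus strand). It had normalized counts of 48.4, 34.6 and 48.7 in parent libraries and 61.9, 68.0 and 68.2 in ADRr libraries. The ADRr libraries were higher in 3 of 3, but the counts were low and parent library 2 stood below its group. The log2 fold change was 0.58 (SE 0.22, edgeR adjusted p = 0.0267). The call was lost in edgeR without parent library 2 (0.44, edgeR adjusted p = 0.0983). It was also lost without ADRr library 2 (0.57, edgeR adjusted p = 0.0597) and without ADRr library 3 (0.56, edgeR adjusted p = 0.0717). DESeq2 gave 0.59 with an adjusted p of 0.0919, and over all alternatives the adjusted p ranged from 0.0188 to 0.0983.

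Of the other ligands and receptors of the VEGF and adrenomedullin families, 8 of 14 were tested. Of these, 3 were called higher (37.5%) and 3 lower (37.5%), against 29.2% and 29.6% of all tested genes. ADM2, which encodes intermedin, a relative of adrenomedullin acting through the same receptors, rose with a log2 fold change of 3.43 (SE 0.11), from normalized counts of 83.4 to 115 in parent to 968 to 1111 in ADRr libraries. KDR, the main signalling receptor of VEGFA, rose by 1.07 on the log2 scale at a low level, from 45.4 to 78.9 normalized counts to 127 to 155. NRP1, a co-receptor of VEGFA, rose by 0.29, while NRP2 fell by 1.19, VEGFC, a growth factor for lymphatic vessels, fell by 1.04, and RAMP1, a subunit of calcitonin-family receptors, fell by 1.04. VEGFB and PGF had log2 fold changes of -0.062 and -0.079 and were not called. CALCRL, the receptor that adrenomedullin needs, was not tested, nor were its partners RAMP2 and RAMP3 or the receptors FLT1 and FLT4.

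CA9 encodes a carbonic anhydrase at the cell surface that helps to export acid and is a common marker of hypoxia (ENSG00000107159, chromosome 9, 35673856 to 35681159, plus strand). It was close to undetected, with raw counts of 9, 12 and 7 in parent libraries and 2, 1 and 4 in ADRr libraries. The ADRr libraries were lower in 3 of 3. The ratio of mean normalized counts, ADRr to parent, was 0.230. The 95% interval from the summed counts, 7 against 28 and corrected for depth, ran from 0.0876 to 0.556 and covers counting error only. The exact two-sided permutation test gave p = 0.1, the smallest that 3 against 3 allow. Without the filter on low counts edgeR gave a log2 fold change of -2.03 (SE 0.78, edgeR adjusted p = 0.0260), which would be called, and DESeq2 gave -2.10 (adjusted p = 0.0647), which would not. Of its 1670 exon bases, 643 overlap exons of ARHGEF39 on the opposite strand, which had 239 to 288 counts in parent and 44 to 54 in ADRr libraries, and whether reads were assigned by strand is not given in the sources used here. Reads of the 2 genes can therefore not be told apart in that overlap. CA12, another carbonic anhydrase at the cell surface, rose with a log2 fold change of 0.86 (SE 0.13, edgeR adjusted p = 4.45e-06).

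DDIT4 encodes REDD1, which restrains mTORC1 through the TSC complex and is induced by hypoxia, DNA damage and glucocorticoids (ENSG00000168209, chromosome 10, 72273920 to 72276036, plus strand). For DDIT4 the normalized counts were 790, 746 and 831 in parent libraries and 1420, 1625 and 1314 in ADRr libraries. All ADRr libraries were higher, with a wider spread among them than among the parent libraries. DDIT4 rose 1.84-fold (log2 fold change 0.88, SE 0.076, edgeR adjusted p = 8.00e-10). It shares 847 exon bases with DDIT4-AS1, which had 0 counts.

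BNIP3 encodes a mitochondrial outer membrane protein that recruits the autophagy machinery (ENSG00000176171, chromosome 10, 131966455 to 131982013, minus strand). Normalized counts of BNIP3 were 1940, 1948 and 2004 in parent libraries and 1832, 1704 and 1795 in ADRr libraries. The groups did not overlap, and the log2 fold change of -0.14 (SE 0.056, edgeR adjusted p = 0.0276) was under the fold limit, so BNIP3 was not called. It has 39 pseudogenes by symbol, 25 of them at 0 in every library, with at most 66 counts in a library for any of the rest. Reads shared with these copies may be counted in part elsewhere.

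NDRG1 encodes a cytoplasmic stress-response protein used as a hypoxia marker (ENSG00000104419, chromosome 8, 133237171 to 133302022, minus strand). The NDRG1 transcript had normalized counts of 2358, 2395 and 2467 in parent libraries and 2804, 2920 and 2891 in ADRr libraries. The groups did not overlap, but the fold of 1.19 (log2 fold change 0.25, SE 0.052, edgeR adjusted p = 1.75e-04) was just under the limit of 1.2, and the gene was not called. It passed the limit without parent library 3 (log2 fold change 0.27) and without ADRr library 1 (0.28).

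**Figure D3:**
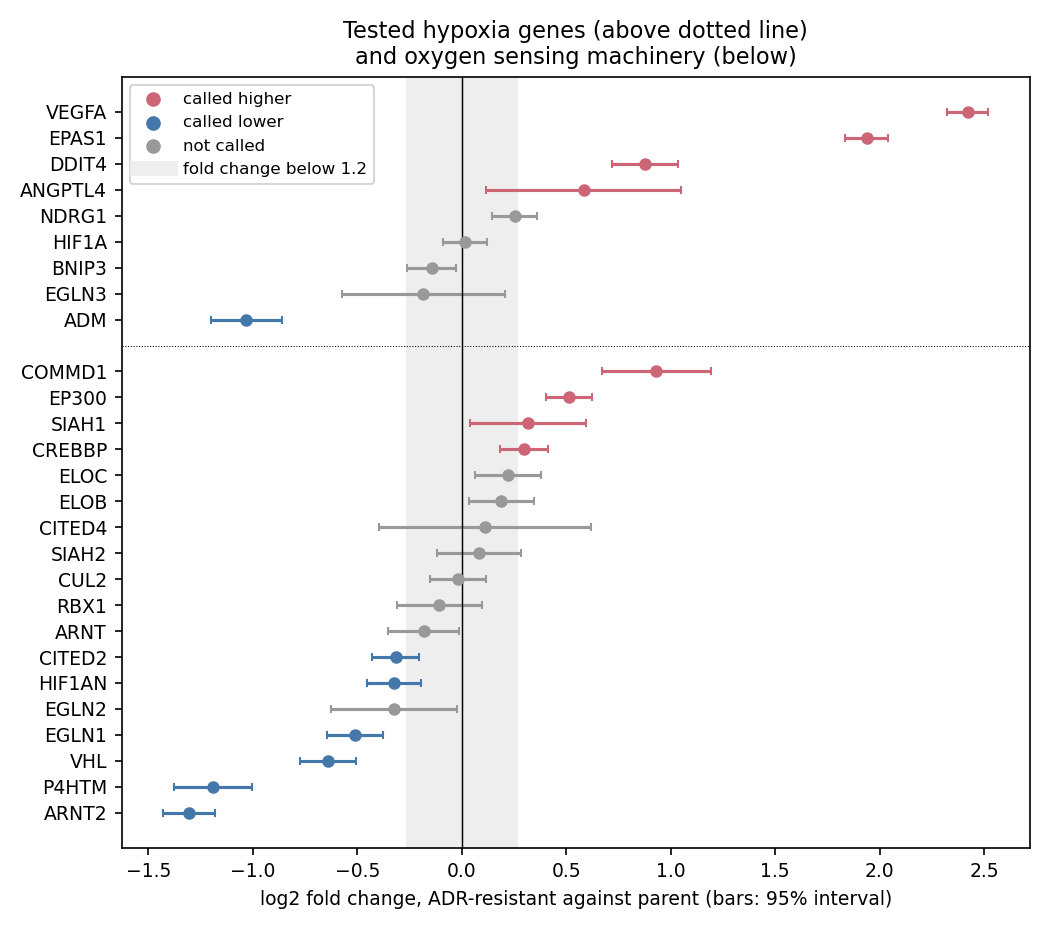
Log2 fold change (ADRr against parent, horizontal axis) with 95% intervals from the edgeR fit, for the 9 tested genes above the dotted line and the 18 tested oxygen sensing genes under it, where the grey band holds folds under 1.2. VEGFA at 2.42 and EPAS1 at 1.94 lie far to the right, ADM at -1.03 far to the left, and the interval of HIF1A spans 0.

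Levels of different genes were compared per length, in FPKM. In parent cells the order was HIF1A (61.7), DDIT4 (21.9), BNIP3 (21.1), EPAS1 (17.4), ADM (14.7), NDRG1 (14.0), VEGFA (10.5), ANGPTL4 (1.01), EGLN3 (0.604) and CA9 (0.332), where the libraries of DDIT4 and BNIP3 and those of ADM and NDRG1 overlapped. In ADRr cells the FPKM order was EPAS1 (66.7), HIF1A (62.7), VEGFA (56.6), DDIT4 (40.5), BNIP3 (19.1), NDRG1 (16.8), ADM (7.21), ANGPTL4 (1.53), EGLN3 (0.535) and CA9 (0.0766), and no neighbours in that order overlapped. EPAS1 moved from the fourth to the first place and VEGFA from the seventh to the third. The length used for VEGFA is 14431 bases, the union of all its exons, which lowers its FPKM against a single transcript.

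Sequence around the RefSeq start of each gene was examined for the core letters of the hypoxia response element, ACGTG or GCGTG on either strand, with overlapping matches merged. The windows run from 250 bases before to 50 after the start in RefSeq (GRCh38.p14). Windows were found for 8 of the 10 genes, HIF1A with 2, and not for VEGFA or NDRG1. Of all 35116 promoters in that table, 48.4% hold at least 1 match, 2.75% at least 4 and 0.994% at least 5. At least 1 match was found in 7 of the 8 genes. EPAS1, CA9, ADM and ANGPTL4 have 1 match each. HIF1A has 1 in the window of the start at 61695513 and 0 in that of the start at 61697712. DDIT4 has 4 and BNIP3 has 5, all of the latter between 143 and 100 bases before the start, whereas the EGLN3 window has 0. The following stretches show the matches in capitals on the gene's strand, for the genes that rose and have a window, for ADM, which fell, and for HIF1A, CA9 and BNIP3, which were not called or not tested. The match in DDIT4 that lies 26 bases after the start is left out. The ADM and CA9 stretches, 29 bases each, lie before the RefSeq start but wholly within exons of GENCODE 29, whose first start for these genes is further upstream, and the other stretches hold 0 exon bases.
EPAS1, chr2:46297278-46297306, 117 bases before the start: gggcctgccggcGCGTGcccgcccacaca
DDIT4, chr10:72273693-72273721, 219 bases before the start: tccagaaaggggGCGTGgcggtgggtcgg
DDIT4, chr10:72273787-72273815, 125 bases before the start: agaacgttgcttACGTGcgcccggagtcc
DDIT4, chr10:72273859-72273887, 53 bases before the start: ggcgcagagaagGCGTGgcctcgccgcgc
ANGPTL4, chr19:8363909-8363937, 234 bases before the start: ggaaagaagagtCACGTctcccacggttc
ADM, chr11:10304960-10304988, 101 bases before the start: gagcaggagcgcGCGTGgctgaggaaaga
HIF1A, chr14:61695297-61695325, 204 bases before the start: tggctgagagcgGCGTGggctggggtggg
CA9, chr9:35673898-35673926, 18 bases before the start: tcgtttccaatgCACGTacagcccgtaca
BNIP3, chr10:131982015-131982074, minus strand, all 5 matches: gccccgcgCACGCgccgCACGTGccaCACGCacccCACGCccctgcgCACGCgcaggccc
Of the genes with the most matches, DDIT4 rose and BNIP3 had a log2 fold change of -0.14. EPAS1 and ADM, each with a single GCGTG about 100 bases before the start, changed in opposite directions. A match is a string of letters and not a bound site, and no binding was measured. The part of these matches in the changes was not tested.

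Other hypoxia targets outside glycolysis moved in both directions, as did the tested genes at large. Of 44 tested, 17 were called higher (38.6%) and 16 lower (36.4%), against 29.2% and 29.6% of all tested genes. The median log2 fold change of the 44 was 0.048. The largest increases were MAFF (2.38), a small transcription factor of the MAF family, MXI1 (1.61), an antagonist of MYC, and BHLHE41 (1.35), a circadian repressor. LOX, which cross-links collagen, fell by 1.38 on the log2 scale, FUT11, a fucosyltransferase, fell by 1.06, and SAP30, a subunit of a histone deacetylase complex, fell by 0.94. LOX moved in the same direction as the fibroblast markers, whose part in it was not tested.

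More glycolytic targets fell than rose. Of 19 tested, 3 were called higher (15.8%) and 10 lower (52.6%), against 29.2% and 29.6% of all tested genes. With a library left out, 3 to 4 were called higher and 8 to 12 lower. The median log2 fold change of the 19 was -0.27. HK2, which commits glucose to the cell by phosphorylation, rose from normalized counts of 634 to 686 in parent to 3002 to 3149 in ADRr libraries, with a log2 fold change of 2.23 (SE 0.061). SLC2A3, a glucose transporter, rose by 1.72 and ENO1, an enolase, by 0.70 on the log2 scale. LDHA, which turns pyruvate into lactate, fell by 0.88 on the log2 scale, from normalized counts of 22268 to 22789 to 12007 to 12450. PFKFB4, a regulator of phosphofructokinase, fell by 1.80, and PGAM1, a phosphoglycerate mutase, fell by 1.26.

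**Figure D4:**
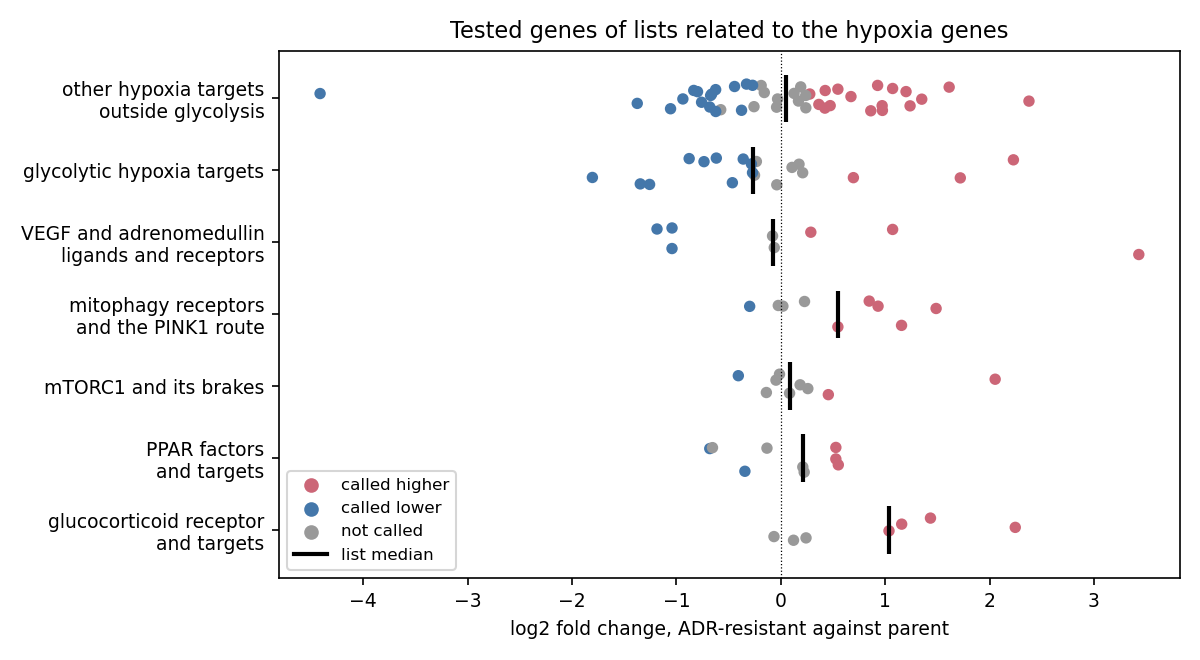
Log2 fold change (ADRr against parent, horizontal axis) of each tested gene in 7 related lists, 1 row a list, with genes called higher in red, called lower in blue and not called in grey, and a bar at each list's median. The glycolytic targets have their median at -0.27 and the mitophagy receptors at 0.55.

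Around BNIP3, the receptors and adaptors of mitophagy and the PINK1 route were mostly higher. Of 9 tested, 5 were called higher (55.6%) and 1 lower (11.1%), against 29.2% and 29.6% of all tested genes. The median log2 fold change of these 9 was 0.55. SQSTM1 rose with a log2 fold change of 1.49, from normalized counts of 5676 to 6327 in parent to 16056 to 17220 in ADRr libraries, OPTN rose with 1.16 and CALCOCO2 with 0.93. These 3 are adaptors that tie ubiquitin-tagged cargo to autophagosomes. BNIP3L, the closest relative of BNIP3 and itself a mitophagy receptor, rose with 0.55 (SE 0.071, edgeR adjusted p = 4.83e-07), while FUNDC1, a receptor tied to hypoxia, fell by 0.30.

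Around DDIT4, 2 of 9 tested genes of mTORC1 and its brakes were called higher (22.2%) and 1 lower (11.1%). Over all tested genes these shares were 29.2% and 29.6%. SESN2, a leucine sensor that restrains mTORC1 and responds to stress, rose with a log2 fold change of 2.05 (SE 0.077), from normalized counts of 291 to 321 in parent to 1213 to 1330 in ADRr libraries. TSC1 rose with 0.46 and TSC2, its partner in the complex through which DDIT4 acts, fell by 0.41. Since DDIT4 also answers to glucocorticoids, that receptor's gene, NR3C1, was listed with targets of the receptor. Of 7 tested genes, 4 were called higher (57.1%) and 0 lower, with a median log2 fold change of 1.04. NR3C1 itself, at 0.24, was under the fold limit. DUSP1, a phosphatase of MAP kinases, rose with 2.25, PER1, a clock gene, with 1.43, and TSC22D3, which encodes GILZ, with 1.04. FKBP5, a commonly used readout of this receptor, had a log2 fold change of -0.065 and SGK1 one of 0.12, and neither was called.

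For ANGPTL4, 9 of 12 genes of the PPAR factors and their targets were tested, with 3 called higher (33.3%) and 2 lower (22.2%). CPT1A (log2 fold change 0.55), HADHA (0.53) and PLIN2 (0.53), which serve fatty acid oxidation and storage, rose, while the factors PPARG and PPARD fell by 0.68 and 0.34. Among relatives of the members by sequence family, 12 of 28 were tested, with 5 called higher (41.7%) and 3 lower (25%). ANGPTL2, a secreted relative of ANGPTL4, rose with a log2 fold change of 1.63, CA12 with 0.86 and CA5B, a mitochondrial carbonic anhydrase, with 0.55, whereas NDRG4 fell by 0.85 and BNIP2 by 0.29. Over all lists, 132 of 163 genes were tested, and 43 were called higher (32.6%) and 42 lower (31.8%). These are close to the shares over all tested genes, 29.2% and 29.6%.

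The 25 tested genes on either side of each member along its chromosome were compared with the member itself. Around EPAS1 the neighbours were also shifted upward, with a median log2 fold change of 0.60 over 50 genes and 33 called higher against 5 lower, although EPAS1 at 1.94 was above all but 2 of them. With 10 genes on either side the median around EPAS1 was 1.08, and 1 of the 20 was above EPAS1. VEGFA lay the other way, since its 50 neighbours had a median of -0.49, with 7 called higher and 33 lower, and 2 had a larger log2 fold change than VEGFA. The tested genes next after VEGFA, AL109615.3 (3.45) and C6orf223 (2.35), also rose, whereas MRPS18A, just before it, was at -0.51. Around BNIP3, whose own log2 fold change was -0.14, the median over 42 neighbours was 0.51, with 25 called higher and 2 lower, and it was 0.93 over the 20 nearest. The 50 neighbours of CA9 had a median of -0.49, with 5 called higher and 30 lower. For the other 6 members the medians lay between -0.014 and 0.15.

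Neighbours were also taken for the genes of the related lists after their values were seen. VHL, at a log2 fold change of -0.64, matched the median of its 50 neighbours, which was -0.65, with 34 called lower. P4HTM, at -1.19, lay among neighbours with a median of -0.73 and 38 called lower, and COMMD1, at 0.93, among neighbours with a median of 0.57 and 31 called higher. HK2 had a neighbour median of 0.48 against its own 2.23, and EGLN1 one of 0.061 against its own -0.51. PFKFB4, at -1.80, had a neighbour median of -0.63 with 37 called lower, and ARNT2, at -1.30, one of -0.41 with 25 called lower. OPTN, at 1.16, and MXI1, at 1.61, had neighbour medians of 0.42 and 0.35, each with 28 called higher. CA12, at 0.86, and KDR, at 1.07, rose among neighbours with medians of -0.57 and -0.47. Only some of the listed genes are given here. HADHA, at 0.53, was under its neighbour median of 0.70, with 35 called higher. CPT1A (0.55) and PLIN2 (0.53) had neighbour medians of -0.039 and -0.31. PPARG, at -0.68, had a neighbour median of -0.54 with 29 called lower. BNIP2, at -0.29, had one of -0.57 with 34 called lower. VEGFC, at -1.04, and SAP30, at -0.94, each had a neighbour median of -0.64. DNA copy number was not measured, and its part in these shifts was not tested.

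**Figure D5:**
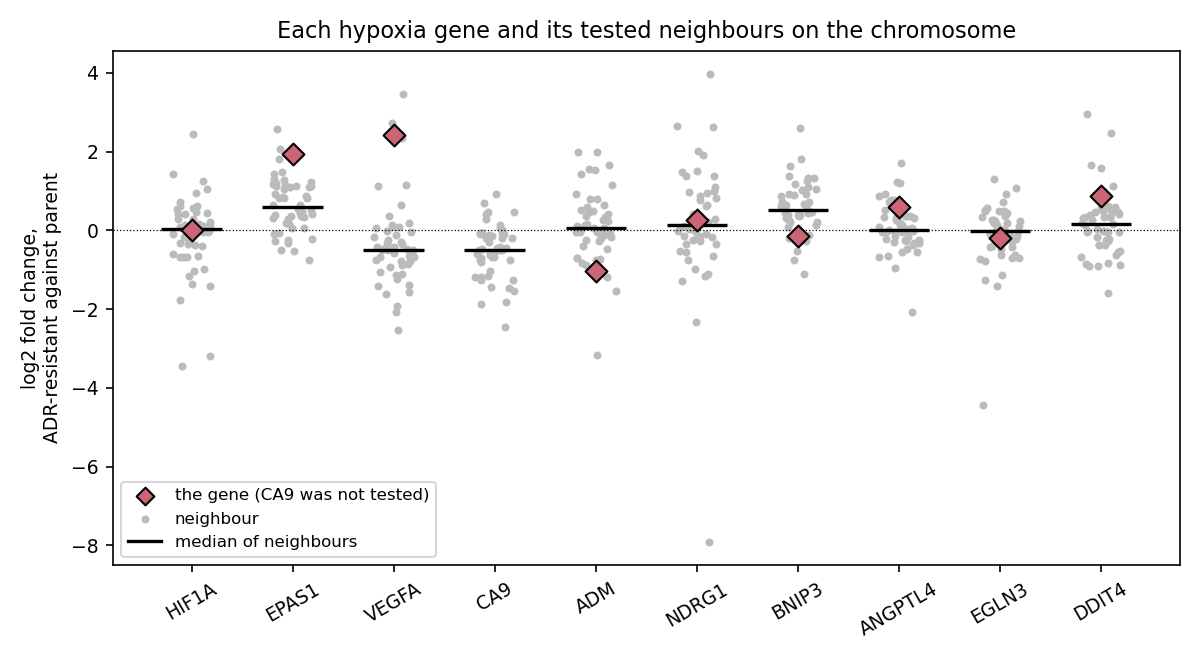
Log2 fold change (ADRr against parent) of the tested genes on either side of each member, with grey points for neighbours, a diamond for the gene itself and a bar for the median of its neighbours. The neighbour medians, over up to 25 genes a side, are 0.60 for EPAS1, 0.51 for BNIP3 and -0.49 for VEGFA and CA9.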

How the data were processed

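RNA of parent MDA-MB-231 cells and of ADRr cells (3 libraries each) was sequenced by the authors. According to the study's methods, polyadenylated RNA was made into libraries with the CORALL kit and read as paired ends. The labels name a TruSeq cluster kit, which the methods give for clustering and not for making libraries. The submitters' processing notes name fastp, HISAT2 2.0.5, featureCounts 1.5.0-p3, DESeq2 1.20.0 and GRCh38. One deposited table holds raw counts, which were used without further correction, and another holds FPKM values that the authors derived from reads of the same libraries. The strand setting of the counting is not given in the sources used here. All 58735 gene identifiers have the same start and end in GENCODE 29.

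Tests were run with edgeR 4.0.16 in R 4.3.3. The 15242 genes kept by filterByExpr were scaled by TMM and compared with the quasi-likelihood test, with Benjamini-Hochberg adjustment over all of them. Normalized counts are counts scaled by TMM to the mean library size. The SE is the absolute log2 fold change divided by the square root of the test's F. A call needed an adjusted p no higher than 0.05 together with a fold of 1.2 or more. The FPKM values served for levels between genes and for an alternative test with limma 3.58.1. DESeq2 1.42.0 was another alternative. The tests were checked on simulated data first. Within a group, libraries differed by 2.60 to 8.41 times the counting noise (chi-square per degree of freedom) and between groups by 121 to 135 times. All 6 were therefore counted separately, which does not show that they came from separate cultures or RNA preparations. Total counts of 15983985 to 18272314 per library limit the precision for genes such as CA9, and intervals from counts cover counting error only.

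The members and lists were chosen with earlier results of these data known. Genes reported by name were every member, every tested gene of the oxygen sensing list, in each other list up to 3 called genes with the largest increase and up to 3 with the largest decrease whose higher group averaged 100 or more normalized counts, and the 3 closest profiles to each factor. Genes outside this rule (ARHGEF39, BNIP3L, FKBP5, SGK1, NR3C1, AL109615.3, C6orf223, MRPS18A and the genes listed as not called or not tested) were named after their values were seen. Promoter sequences came from RefSeq (GRCh38.p14) and were scanned with Python 3.11.15. The alternatives were other scalings, filters, call rules, tests and units, a replicate block, and each library left out in turn.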

Additional observations from a re-analysis of the deposited data

How the results depend on the processing

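EPAS1, VEGFA and EGLN3 kept their direction and their side of the threshold under all 19 alternatives. NDRG1 crossed the fold limit with library size alone (0.28), protein-coding genes only (0.27), and a minimum of 10 counts in each library (0.26), and lay between 0.24 and 0.28 with a library left out. By adjusted p alone, with no fold limit, NDRG1 (0.25) and BNIP3 (-0.14) were called. ANGPTL4 was lost with DESeq2 (0.59), an absolute log2 fold change of 1.2 (0.58), glmTreat against a fold of 1.2 (0.58) and limma without a filter (0.33), and lay between 0.44 and 0.66 with a library left out. An absolute log2 fold change of 1.2 also removed ADM (-1.03) and DDIT4 (0.88) and left 2 members called higher and 0 lower, with 13 listed genes higher and 7 lower in place of 43 and 42. Members called higher ranged from 3 to 5 with a library left out. Members called lower were 2 by adjusted p alone, with BNIP3, and 2 without a filter in edgeR or limma, with CA9. The median of the members, which then includes CA9, was 0.14 with DESeq2, 0.13 without a filter and 0.13 with limma without a filter. HIF1A changed sign without parent library 3 (-0.024) and without ADRr library 3 (-0.011), within a range of -0.024 to 0.044, and was not called in either. The EPAS1 share differed by 31.65 percentage points from raw counts, and by 29.19 to 30.32 with a library left out. With 10 neighbours a side, the medians were 1.08 around EPAS1, 0.93 around BNIP3 and 0.15 around EGLN3, the last with its sign changed from -0.014. The cause of these shifts was not tested.

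No effect shared by libraries with the same replicate number in the titles was seen. The deviations of same-numbered libraries correlated at 0.0074, -0.021 and -0.046, and 1 of 6 libraries correlated best with its own number. This cannot show whether same-numbered libraries were handled together. With the replicate block, EPAS1 was at 1.94, VEGFA at 2.42 and HIF1A at 0.02, with 4 members called higher and 1 lower, and no call on a member changed. Library size alone moved the median of all genes to 0.020 and the calls to 4640 higher and 4334 lower, from 4451 and 4507. Depth limits CA9, EGLN3 and ANGPTL4, which had few counts.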
